A study of Rattus norvegicus with 23 samples.

Results

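The genes described here are the rat genes whose symbol begins with Zfp followed by a number, a naming series for zinc finger proteins. This family was chosen with earlier results of these data known. Membership in it went by name alone: every probe set of the expression table whose platform annotation gave 1 gene symbol, and whose symbol had that form, was a member. This gave 341 probe sets of 220 genes, out of 31042 probe sets that are not array controls and 14217 genes with a symbol of their own. A further 7 probe sets that named a Zfp gene together with another gene were left out. The table came from CA3, the hippocampal field that lies between the dentate gyrus and CA1, dissected from male Long-Evans rats and hybridised to Affymetrix whole-genome rat arrays, with 1 array per animal. The animals received no treatment. They formed 3 groups: 9 young rats aged 6 months, 6 aged unimpaired rats and 8 aged impaired rats, both aged groups being between 24 and 26 months old. An aged rat counted as impaired when its learning index in a water maze was worse than the range of young rats, and as unimpaired when it lay within that range, so the 2 aged groups are cuts along 1 behavioural score and not different genotypes or treatments.

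A zinc finger is a small fold held together by a zinc ion. In the C2H2 type, the commonest among these proteins, strings of fingers read DNA base by base, and many family members carry a KRAB box, which recruits the corepressor Trim28 and the histone methyltransferase Setdb1 and so deposits repressive chromatin, often over transposable elements. The Zfp name is a label and not a mechanism. It also covers CCCH fingers, which bind RNA (Zfp36 and its relatives), the SUMO ligase Zfp451 and the ubiquitin ligase Zfp91. Most KRAB zinc finger genes lie in clusters of near-identical neighbours and are transcribed at low levels in adult tissue, which bears on how well an array can measure them.

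Start regions of 4 members are shown here because the age and impairment results below turn on these genes. Each is the run of 250 bases before the annotated start, 5′ to 3′ on the gene's own strand (the minus strand for all 4), from RefSeq on the GRCr8 assembly. Capitals mark matches on either strand to the GC box GGGCGG, the CCAAT box CCAAT, the ETS core CCGGAAG or the TATA box TATAAA. Matches can share end bases, which did not occur in these windows. Zfp664 held 5 GC boxes, Zfp346 held 4 and a CCAAT box, Zfp91 held 4 and a CCAAT box, and Zfp451 held 1 and an ETS core.
Zfp664, chr12:37456908-37457157: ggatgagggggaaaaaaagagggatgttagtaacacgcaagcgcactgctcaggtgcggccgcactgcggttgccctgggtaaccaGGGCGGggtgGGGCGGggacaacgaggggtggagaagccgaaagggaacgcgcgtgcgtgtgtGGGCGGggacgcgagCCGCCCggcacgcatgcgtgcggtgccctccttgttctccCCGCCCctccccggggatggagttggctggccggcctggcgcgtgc
Zfp346, chr17:9528784-9529033: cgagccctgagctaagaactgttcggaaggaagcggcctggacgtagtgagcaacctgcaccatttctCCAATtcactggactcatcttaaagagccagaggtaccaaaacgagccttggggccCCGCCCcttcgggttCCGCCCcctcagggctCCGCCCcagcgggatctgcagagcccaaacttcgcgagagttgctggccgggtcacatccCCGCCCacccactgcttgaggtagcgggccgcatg
Zfp91, chr1:219352419-219352668: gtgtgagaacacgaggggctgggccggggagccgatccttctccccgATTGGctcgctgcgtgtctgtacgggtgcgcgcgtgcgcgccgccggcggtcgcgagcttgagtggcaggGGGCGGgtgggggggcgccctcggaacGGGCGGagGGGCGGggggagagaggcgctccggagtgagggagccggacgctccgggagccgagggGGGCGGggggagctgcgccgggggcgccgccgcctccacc
Zfp451, chr9:43536607-43536856: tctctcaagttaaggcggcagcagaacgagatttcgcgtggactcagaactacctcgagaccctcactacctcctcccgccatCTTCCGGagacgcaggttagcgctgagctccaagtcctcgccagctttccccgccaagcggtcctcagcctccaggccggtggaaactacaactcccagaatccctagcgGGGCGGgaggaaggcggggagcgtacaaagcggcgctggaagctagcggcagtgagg
Of the 220 genes, 178 had an entry among the 33469 promoters of the RefSeq table. Zfp genes were counted by 1 entry each, while the comparison took every entry of the table, whatever its gene. These sets are thus not matched. The GC box was present in 43.8% of the Zfp promoters and in 30.5% of all promoters, the CCAAT box in 42.1% and 34.0%, the ETS core in 14.04% and 7.27%, and the TATA box in 7.87% and 12.9%. The median GC content was 56.0% against 51.2%, and a ratio of observed to expected CpG of at least 0.6 was found in 59.0% of Zfp promoters against 33.0% of all. Genes with a measurable probe set had a median ratio of 0.694 and those without one 0.6002. These are matches of letters in a window, and no binding was measured.

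Deposited values are log2 intensities, and a probe set was tested where it reached a log2 value of 4 on at least 6 of the 23 arrays. Of the 341 Zfp probe sets, 185 passed (54.3%), against 47.2% of all probe sets. They covered 137 genes, so 83 of the 220 genes could not be assessed in this tissue, among them Zfp354a, Zfp354c and Zfp37. A log2 value of 4 was never reached by 144 members (42.2%, against 50.5% of all), while 12 reached it on 1 to 5 arrays and 12 on 6 to 22. The closest member outside the limit was Zfp467, at or above 4 on 4 arrays with a mean of 3.84. The Zfp probe sets that passed were dimmer than the array as a whole, with a median log2 intensity of 6.53 against 7.62, and their median SD within groups was 0.147 against 0.137. Intensities of different probe sets are not comparable as transcript amounts, so these figures describe how bright the probe sets were and not how much RNA each gene made.

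After GCRMA, the authors' background correction, many probe sets held the same value on several arrays. Such shared values were not confined to dim probe sets: Zfp637 held 9.04 on 9 arrays. The dim Zfp292 probe set 1385050_at held its most common value, 3.92, on only 2. How shared values relate to brightness was not tested. At least 8 of the 23 arrays shared 1 value, to 2 decimals, in 61 of the 185 Zfp probe sets (33.0%) and in 3360 of the 14647 probe sets tested (22.9%). Among probe sets called in any comparison the shares were 3 of 12 for Zfp members (25.0%) and 115 of 1764 for all (6.52%). Zfp346 is an example: 12 arrays stood at 5.84, comprising 2 aged impaired, 6 aged unimpaired and 4 young animals. Zfp609 had 12 arrays at 6.26, and Zfp36 had 12 at 5.86. For such probe sets the groups differ in how many animals leave the shared value and in which direction, and the size of a difference is compressed.

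**Figure D1:**
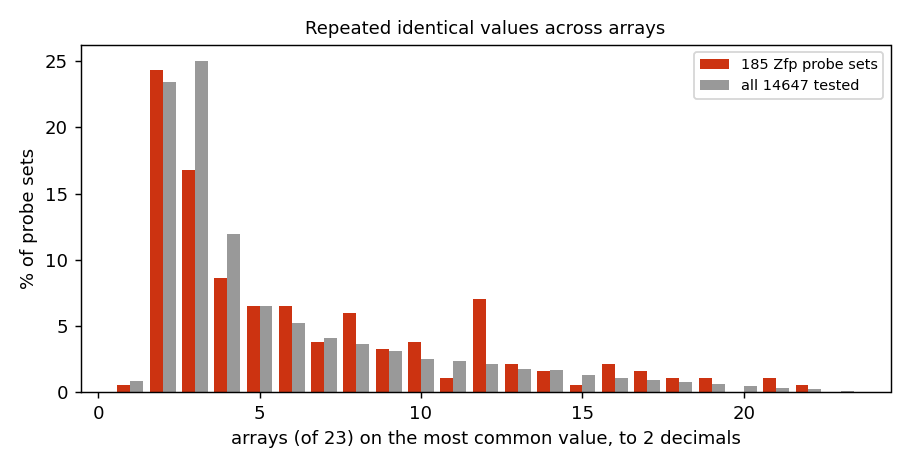
Share of probe sets (percent, y axis) by the number of arrays, out of 23, that hold the probe set's most common value to 2 decimals (x axis), for the 185 tested Zfp probe sets (red) and all 14647 tested probe sets (grey). At 12 arrays the Zfp bar stands at 7.03% and the bar of all probe sets at 2.10%.

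Against young rats, few Zfp genes passed the test in either aged group, and those that did changed by small amounts. With limma's moderated test over all 14647 tested probe sets and a Benjamini-Hochberg adjusted p of at most 0.05, 10 of the 185 Zfp probe sets (5.41%) were called in aged impaired against young rats, where 9.76% of all tested probe sets were called. Of these, 5 rose (all probe sets 3.88%) and 5 fell (all probe sets 5.88%). In aged unimpaired against young rats, 3 were called (all probe sets 2.06%), every one higher, with none lower (all probe sets 0.696%). At an unadjusted p under 0.05, 17 were higher and 9 lower there, and the share over all probe sets at that limit was not computed. For the mean of the aged groups against young rats, 7 were called (all probe sets 6.9%), 4 higher (all probe sets 3.34%) and 3 lower (all probe sets 3.56%). Between aged impaired and aged unimpaired rats, 2 were called (all probe sets 0.778%), both of them higher (all probe sets 0.676%) and none lower (all probe sets 0.102%). At an unadjusted p under 0.05, 9 were higher and 15 lower, again without a share over all probe sets. The comparisons against young rats share the young animals, so their calls are not independent of each other. The array median, which lay below the log2 limit of 4 on every array, was higher in each aged impaired than in each young animal. Centring every array on its median took the impaired against young calls to 21, with 5 higher and 16 lower (2350 calls over all probe sets). The unfiltered table gave 5, with 2 higher and 3 lower (768 calls over all probe sets). No Zfp probe set had groups that did not overlap in any of these comparisons. Over all probe sets such separation was seen in 0.594% (higher) and 0.259% (lower) for impaired against young, 0.649% and 0.287% for unimpaired against young, 0.123% and 0.164% for impaired against unimpaired, and 0.259% and 0.0273% for both aged groups against young rats.

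As a set the Zfp probe sets were centred near 0. The median log2 difference was 0.00 between aged impaired and young rats (all probe sets -0.02), with a range from -0.43 to 0.63 and 95 probe sets above and 90 below 0. Between aged unimpaired and young rats the median was 0.02 (all probe sets 0.00), with 107 above and 78 below. Between the aged groups it was -0.02 in both. The median absolute difference between aged impaired and young rats was 0.089 for Zfp members and 0.082 for all. With 1 probe set per gene, the brightest, and the calls of the fit above, 5 of 137 Zfp genes rose and 4 fell in impaired rats, while 332 and 560 of 8726 genes did so over the whole array. Refitting and adjusting over these brightest probe sets alone gave 6 Zfp genes higher and 5 lower, with 946 genes called in all.

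**Figure D2:**
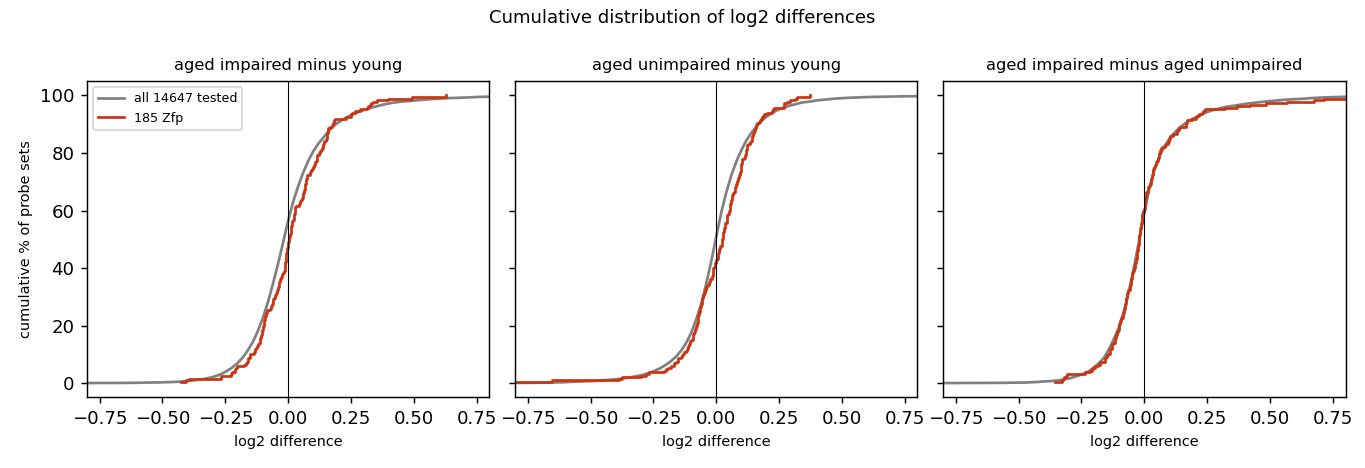
Cumulative share of probe sets (percent, y axis) by log2 difference (x axis) for the 185 Zfp probe sets (red steps) and all 14647 tested probe sets (grey), in aged impaired minus young, aged unimpaired minus young and aged impaired minus aged unimpaired rats. The axis stops at 0.8, and the curves lie close together, with medians of 0.00 and -0.02 in the first panel.

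Among members that rose with age, Zfp664 had the lowest adjusted p in each aged group. Its probe set lay at 9.06, 9.20 and 9.36 in young rats (lowest, median and highest animal), at 9.36, 9.47 and 9.61 in aged unimpaired rats and at 9.29, 9.48 and 9.63 in aged impaired rats. In the aged impaired group 7 of 8 animals, and in the aged unimpaired group 5 of 6, lay above every young animal. The difference from young was 0.25 ± 0.05 (SE; 1.19-fold, limma adjusted p = 0.00565) in impaired and 0.27 ± 0.06 (1.21-fold, adjusted p = 0.0146) in unimpaired rats, and the aged groups differed by -0.02 ± 0.06 (adjusted p = 0.921). The unimpaired call ended with the replicate number as a block (adjusted p = 0.111) and held under the other 9 settings and without any animal.

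Zfp106, an RNA-binding zinc finger protein needed for the upkeep of motor neurons and muscle, rose in both aged groups on 1 of its 2 tested probe sets. Probe set 1371794_at lay at 9.68, 9.74 and 9.80 in young, 9.73, 9.92 and 10.13 in aged unimpaired and 9.79, 9.89 and 10.02 in aged impaired rats. Of the aged animals, 12 of 14 lay above every young animal. It rose by 0.16 ± 0.04 (1.12-fold, adjusted p = 0.0192) in impaired and 0.19 ± 0.05 (1.14-fold, adjusted p = 0.0355) in unimpaired rats. The other tested Zfp106 probe set, 1395532_at, did not pass the test (-0.04 ± 0.06, adjusted p = 0.669, and 0.10 ± 0.06, adjusted p = 0.46), so the tested probe sets of this gene gave different readings. The unimpaired call of Zfp106 ended when any of 10 of the 15 animals in that comparison was left out (adjusted p up to 0.102) and under 5 of 10 other settings (adjusted p up to 0.175, with the replicate number as a block).

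Zfp536, a brain C2H2 protein that restrains neuronal differentiation, rose in impaired rats. Probe set 1392840_at lay at 7.47, 7.95 and 8.16 in young, 8.06, 8.12 and 8.32 in aged unimpaired and 7.97, 8.15 and 8.38 in aged impaired rats, so the groups overlapped between 7.97 and 8.16. It rose by 0.29 ± 0.08 (1.22-fold, adjusted p = 0.0252) in impaired rats. The difference was 0.28 ± 0.09 in unimpaired rats, where the adjusted p of 0.0932 did not pass. For both aged groups as one the difference was 0.28 ± 0.07 (adjusted p = 0.0176). Probe sets 1379589_at and 1385453_at of the gene, both dim, differed by 0.18 ± 0.08 (adjusted p = 0.152) and 0.25 ± 0.18 (adjusted p = 0.386) in impaired rats. The impaired call of 1392840_at ended without aged impaired animal 3 or 8 (adjusted p up to 0.051), in the unfiltered table (0.0613), with the replicate number as a block (0.0825) and with the gap between a pair of control rows as a covariate (0.0562).

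Zfp329 rose in impaired rats on 1 of its 2 tested probe sets. Probe set 1384118_at lay at 5.54, 6.05 and 6.14 in young, 5.72, 6.07 and 6.30 in aged unimpaired and 6.05, 6.23 and 6.58 in aged impaired rats, with 5 of 8 impaired animals above every young animal. The difference was 0.32 ± 0.09 (1.25-fold, adjusted p = 0.0327). Probe set 1397467_at gave -0.04 ± 0.09 (adjusted p = 0.815) in the same animals. The call ended without any of aged impaired animals 5, 6 and 7 or young animals 2, 4 and 7 (adjusted p up to 0.064), and in the unfiltered table, with the replicate block or with the control row gap as a covariate (adjusted p up to 0.0824).

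**Figure D3:**
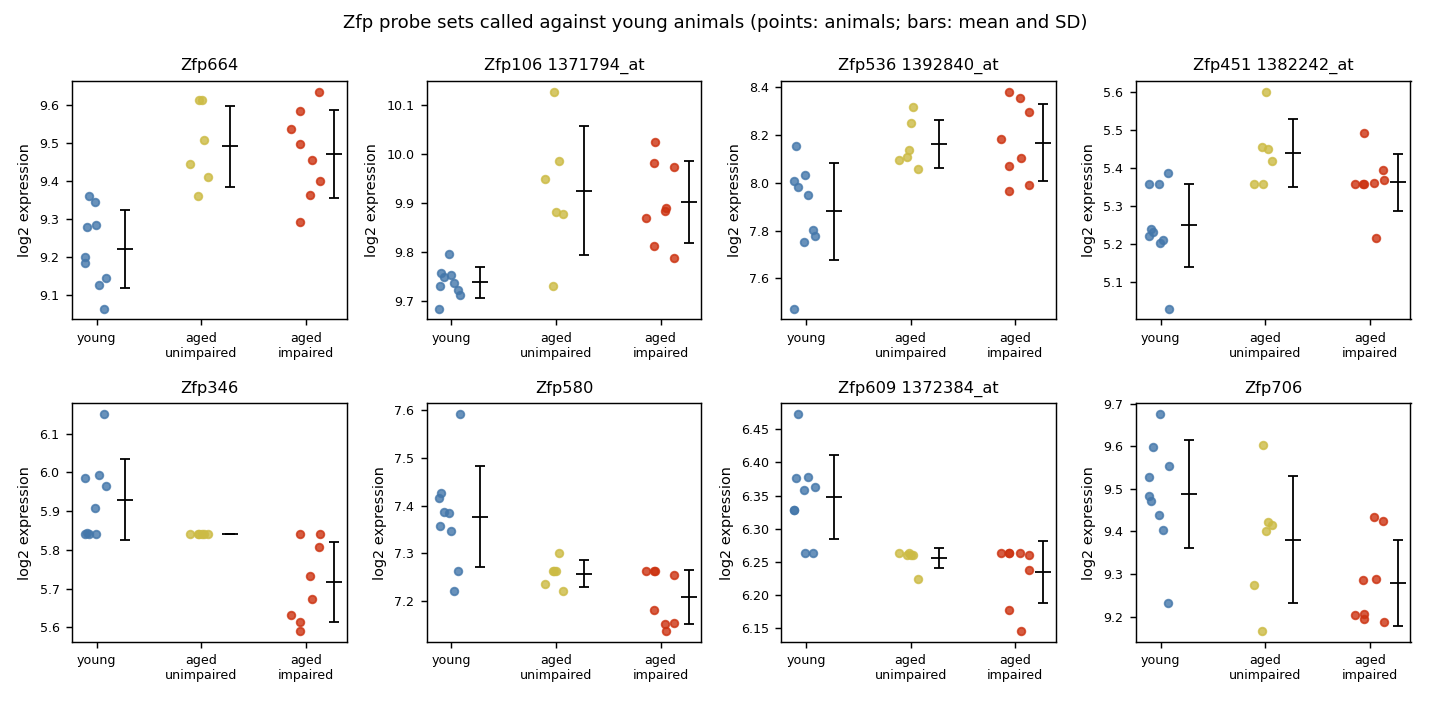
Log2 expression (y axis of each panel, scales differ) of 8 Zfp probe sets called against young rats, by group: young (n = 9), aged unimpaired (n = 6) and aged impaired (n = 8). Points are animals, bars show mean and SD. The aged animals of Zfp664 and Zfp106 mostly lie above the young animals, all 6 aged unimpaired animals of Zfp346 lie at 5.84, and Zfp580 falls from a young mean of 7.38 to an impaired mean of 7.21.

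Among members that fell, Zfp346, a protein whose fingers bind double-stranded RNA, showed a split at its shared value. Its probe set lay at 5.84, 5.91 and 6.15 in young rats, at 5.84 in every aged unimpaired rat, and at 5.59, 5.70 and 5.84 in aged impaired rats. No young animal lay below 5.84 and 6 of 8 impaired animals did. It fell by 0.21 ± 0.05 in impaired rats (1.16-fold, adjusted p = 0.00593). The differences of unimpaired from young rats (-0.09 ± 0.05, adjusted p = 0.377) and of impaired from unimpaired rats (-0.13 ± 0.05, adjusted p = 0.228) did not pass.

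Zfp580 lay at 7.22, 7.38 and 7.59 in young, 7.22, 7.26 and 7.30 in aged unimpaired and 7.14, 7.22 and 7.26 in aged impaired rats. Of the impaired animals, 4 of 8 lay below every young animal. It fell by 0.17 ± 0.04 in impaired rats (1.12-fold, adjusted p = 0.0102). The unimpaired difference was -0.12 ± 0.04 (adjusted p = 0.146). Zfp609, a partner of the cohesin loader Nipbl and of the Integrator complex that is known for its part in cortical neuron migration, lay at 6.26, 6.36 and 6.47 in young, 6.22, 6.26 and 6.26 in aged unimpaired and 6.15, 6.26 and 6.26 in aged impaired rats on probe set 1372384_at. It fell by 0.11 ± 0.03 in impaired rats (1.08-fold, adjusted p = 0.0169). Of the 12 arrays on its shared value of 6.26, 5 were aged impaired, 5 aged unimpaired and 2 young. Probe sets 1389631_at and 1390739_at of Zfp609 differed by -0.00 ± 0.08 (adjusted p = 0.995) and -0.01 ± 0.12 (adjusted p = 0.985).

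Zfp706, a small protein known from the exit of embryonic stem cells from self-renewal, lay at 9.23, 9.48 and 9.68 in young, 9.17, 9.41 and 9.60 in aged unimpaired and 9.19, 9.25 and 9.43 in aged impaired rats. It fell by 0.21 ± 0.06 in impaired rats (1.16-fold, adjusted p = 0.0309), and 4 of 8 impaired animals lay below every young animal. Its call ended without aged impaired animal 5, 6, 7 or 8 or young animal 2, 3 or 7 (adjusted p up to 0.0577), and in the unfiltered table or with the control row gap as a covariate (adjusted p up to 0.0681). Zfp846 fell on the edge of the threshold: probe set 1391564_at lay at 5.03, 5.14 and 5.68 in young, 5.04, 5.05 and 5.25 in aged unimpaired and 4.02, 4.81 and 5.46 in aged impaired rats. Its difference in impaired rats was -0.43 ± 0.14 (1.34-fold lower, adjusted p = 0.0497), and leaving out any of 15 of the 17 animals ended the call (adjusted p up to 0.0875), as did the unfiltered table and a fit of only the groups compared (adjusted p up to 0.124). The second probe set of the gene, 1393543_at, had a difference of -0.16 ± 0.05 with an adjusted p of 0.0501.

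The impaired against young calls of Zfp664, Zfp346, Zfp580 and Zfp609 held when any of the 17 animals was left out and under all 10 other settings of the analysis in which each was recomputed. That of Zfp106 held without any animal and ended with the replicate number as a block (adjusted p = 0.0659).

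Between the aged groups, impaired rats had higher values than unimpaired rats on probe sets of Zfp91, an atypical E3 ubiquitin ligase, and of Zfp451, a SUMO E3 ligase. Zfp91 probe set 1377105_at lay at 7.58, 8.01 and 8.87 in aged unimpaired, 8.41, 8.79 and 9.09 in aged impaired and 7.88, 8.42 and 8.65 in young rats. A single unimpaired animal, number 7, lay at 8.87 among the impaired values, and the other 5 unimpaired animals lay below every impaired animal. The difference was 0.68 ± 0.16 (1.60-fold, adjusted p = 0.0489). Zfp451 probe set 1394654_at lay at 4.53, 5.11 and 5.74 in aged unimpaired, 5.52, 5.94 and 6.72 in aged impaired and 4.91, 5.37 and 5.91 in young rats. It was higher in impaired than in unimpaired rats by 0.90 ± 0.20 (1.86-fold, adjusted p = 0.0393), and higher in impaired than in young rats by 0.63 ± 0.18 (1.55-fold, adjusted p = 0.0282). The call against young rats ended without aged impaired animal 6 or 8 or young animal 8, in the unfiltered table, with the replicate block and with the control row gap as a covariate (adjusted p up to 0.0758).

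Zfp292, a large C2H2 protein, had the widest gap between the aged groups of all tested Zfp probe sets and did not pass the test. Probe set 1376917_at lay at 6.00, 7.13 and 8.20 in aged unimpaired, 7.79, 8.23 and 8.60 in aged impaired and 6.29, 7.83 and 8.38 in young rats. The difference was 1.15 ± 0.30 (2.21-fold, adjusted p = 0.0657), with a spread of 0.77 (SD, n = 6) among unimpaired animals. Without unimpaired animal 7 it was 1.37 with an adjusted p of 0.00865. The other Zfp91 probe sets of this kind, 1383052_a_at, 1383053_x_at and 1383054_at, differed by 0.72 ± 0.17 (adjusted p = 0.0516), 0.48 ± 0.14 (adjusted p = 0.085) and 0.42 ± 0.15 (adjusted p = 0.172). In contrast, Zfp91 probe sets 1383463_at and 1399044_at differed by -0.08 ± 0.08 (adjusted p = 0.696) and -0.09 ± 0.05 (adjusted p = 0.385).

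**Figure D4:**
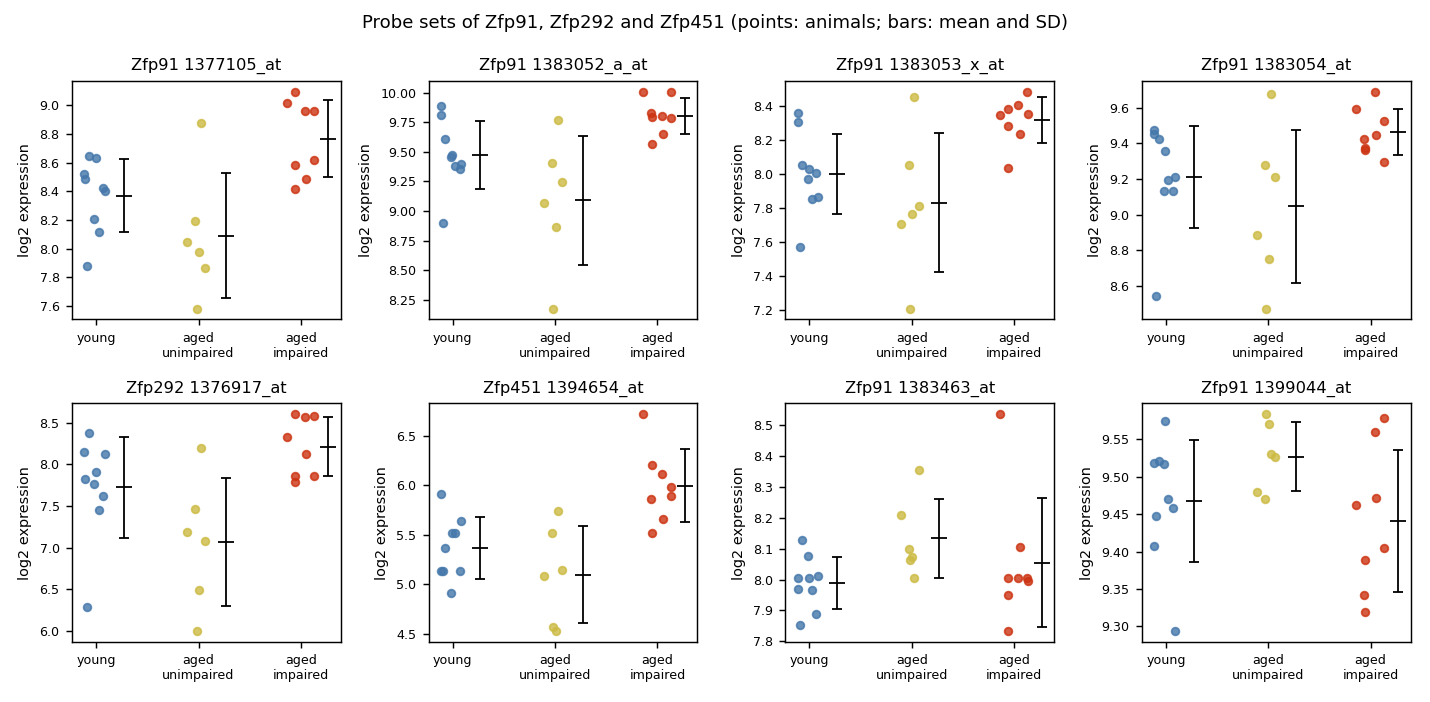
Log2 expression (y axis of each panel, scales differ) of 6 tested Zfp91 probe sets, Zfp292 1376917_at and Zfp451 1394654_at, by group: young (n = 9), aged unimpaired (n = 6) and aged impaired (n = 8). Points are animals, bars show mean and SD. Aged unimpaired animals 4 and 6 are among the 4 lowest animals in each of the first 6 panels, while the last 2 Zfp91 panels do not show that order.

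Some probe sets of these 3 genes followed the same animals, a grouping made after their values were seen. The Zfp91 probe sets were grouped by their correlation with 1377105_at. For Zfp292 and Zfp451 the probe set with the largest excess of impaired over unimpaired rats was taken. The high correlations inside the group, and the low ones of the remaining Zfp91 probe sets, thus follow in part from that choice. Over the 23 arrays, the 15 pairs among the 4 Zfp91 probe sets 1377105_at, 1383052_a_at, 1383053_x_at and 1383054_at, Zfp292 1376917_at and Zfp451 1394654_at had Pearson correlations between 0.756 and 0.958, with a median of 0.879. Within groups, after each group's mean was removed, the correlations ran from 0.575 to 0.951. These are descriptions over arrays that share RNA samples. Aged unimpaired animal 6 was lowest on 5 of the 6 probe sets and next to lowest on the other, and young animal 8 was among the 3 lowest on 5 of the 6. The remaining Zfp91 probe sets did not follow them, with correlations from -0.01 to 0.12 for 1383463_at and from -0.28 to -0.17 for 1399044_at. The same held within Zfp292, where 4 further tested probe sets had correlations between -0.27 and 0.27 with 1376917_at.

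Outside the Zfp genes, the named probe sets most like Zfp91 1377105_at over the 23 arrays were those of Nedd4 (0.947), Nipbl (0.945), Myo5a (0.934) and Grin2a (0.932), and those most like Zfp451 1394654_at were Aff4 (0.914), Setd5 (0.897) and Srrm2 (0.891). Of the 98 other probe sets called higher in impaired than in unimpaired rats, 68 (69.4%) had a within-group correlation above 0.5 with Zfp91 1377105_at, against 877 of 14635 (5.99%) of all tested. Most of the calls in that comparison thus followed the same animals as Zfp91.

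A measure on the control rows of the arrays moved with this pattern. On the log2 scale, the GAPDH 5' row less the GAPDH M row, as named on the array, was 2.14 ± 0.09 (SD, n = 8) in aged impaired, 2.28 ± 0.09 (n = 6) in aged unimpaired and 2.22 ± 0.10 (n = 9) in young rats. Both rows followed a probe set shared by beta-actin genes (r = 0.930 and 0.902) more closely than the Gapdh probe set (0.485 and 0.377), so the gap is used as a gap and not by its name. In 13 relations over 23 arrays, Zfp292 1376917_at had r = -0.61 with the gap (permutation p = 0.00175, adjusted 0.0228, rho = -0.67) and Zfp91 1377105_at r = -0.56 (permutation p = 0.00513, adjusted 0.0333, rho = -0.56). Zfp451 1394654_at had r = -0.50 (permutation p = 0.016, adjusted 0.0692) and rho = -0.55 (permutation p = 0.00733, adjusted 0.0318). Without the 2 arrays farthest from the median gap these r were -0.67, -0.65 and -0.49, and within groups -0.43, -0.33 and -0.21. The other 10 called probe sets had r between -0.20 and 0.23. All 13 probe sets were picked for differences between groups, and the permutations moved arrays across groups. Differences between group means alone can thus give such r and p. The r within groups were not tested. With the gap as a covariate, none of the 185 Zfp probe sets was called between the aged groups. Its part in the difference was not tested further.

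The calls between the aged groups also lay close to the threshold. That of Zfp451 1394654_at ended when any of 10 of the 14 animals was left out (adjusted p up to 0.116). That of Zfp91 1377105_at ended when any of 11 was left out (adjusted p up to 0.143). Leaving out unimpaired animal 7 raised the count of called Zfp probe sets from 2 to 7 (from 114 to 447 over all probe sets). The Zfp451 call also ended under 4 of 10 other settings and the Zfp91 call under 5 of 10. Their adjusted p reached 0.444 and 0.462, both with the gap as a covariate. Over all these fits the difference stayed between 0.77 and 1.02 for Zfp451 1394654_at and between 0.52 and 0.83 for Zfp91 1377105_at.

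The second tested probe set of Zfp451, 1382242_at, had another order. It lay at 5.03, 5.23 and 5.39 in young, 5.36, 5.43 and 5.60 in aged unimpaired and 5.22, 5.36 and 5.49 in aged impaired rats. It was higher in unimpaired than in young rats by 0.19 ± 0.05 (1.14-fold, adjusted p = 0.0487), and the impaired difference of 0.11 ± 0.05 (adjusted p = 0.118) did not pass. The unimpaired call ended when any of 12 of the 15 animals was left out (adjusted p up to 0.129) and under 7 of 10 other settings (adjusted p up to 0.126). Between the aged groups this probe set differed by -0.08 ± 0.05 (adjusted p = 0.525), opposite in sign to 1394654_at.

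The CCCH members, which bind AU-rich elements in mRNA and bring in the deadenylase that removes the poly(A) tail, did not pass the test in any comparison. Zfp36 (tristetraprolin) lay at 5.46, 5.86 and 5.87 in young, 5.63, 5.86 and 6.13 in aged unimpaired and 5.81, 5.86 and 6.52 in aged impaired rats. All 3 medians stood on its shared value, 3 of 8 impaired animals lay above every young animal, and the difference from young was 0.27 ± 0.10 (adjusted p = 0.0789). Zfp36l1 had a difference of 0.03 ± 0.08 (adjusted p = 0.863) and Zfp36l2 of 0.14 ± 0.07 (adjusted p = 0.24) in impaired rats. Of 20 listed genes of the decay machinery with which these proteins work, 15 were tested, none was called in impaired against young rats by limma (all genes 10.2%, 3 at an unadjusted p under 0.05), and the median difference was 0.04.

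Zfp423 and Zfp521, related proteins with many fingers that bind the Ebf transcription factors in neural and blood lineages, were also not called. Zfp423 came closest on both of its tested probe sets, out of 4 on the array. Probe set 1368542_at lay at 7.93, 8.22 and 8.39 in young, 8.20, 8.52 and 8.75 in aged unimpaired and 8.11, 8.56 and 9.12 in aged impaired rats, a difference of 0.34 ± 0.11 in impaired rats (adjusted p = 0.0595). Probe set 1396860_s_at differed by 0.35 ± 0.13 (adjusted p = 0.0769), and by 0.36 ± 0.11 (adjusted p = 0.0524) over both aged groups. The first was called without aged impaired animal 4 or 7 (adjusted p of 0.0319 and 0.0281), the second without animal 7 (0.0341). Zfp521 differed by -0.11 ± 0.13 (adjusted p = 0.652).

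Other members with a known role stayed short of the threshold in each comparison. Zfp462, a chromatin protein of embryonic stem cells and developing brain, differed by -0.22 ± 0.08 in impaired rats on probe set 1393613_at (adjusted p = 0.0648). Aged impaired animal 6 stood apart at 8.28 there, and without it the difference was -0.29 (adjusted p = 0.00729). Its other probe set gave -0.13 ± 0.11 (adjusted p = 0.452). Zfp503 probe set 1393990_at, from a gene of striatal development, differed by 0.23 ± 0.08 (adjusted p = 0.0762), and by 0.26 (adjusted p = 0.0486) without aged impaired animal 1. Zfp638, which takes part in silencing unintegrated retroviral DNA, differed by -0.10 ± 0.04 (adjusted p = 0.0832).

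Differences from young in impaired rats were 0.16 ± 0.07 (adjusted p = 0.167) for Zfp281, a regulator of pluripotency, and -0.14 ± 0.06 (adjusted p = 0.167) for Zfp335, needed for neural progenitors. Zfp110, which interacts with the p75 neurotrophin receptor, differed by 0.07 ± 0.06 (adjusted p = 0.477). Zfp57, which maintains methylation at imprinted genes, differed by 0.10 ± 0.05 (adjusted p = 0.197), and its 3 group medians all stood at 5.21. Zfp148, which binds GC-rich promoters, was read by 3 probe sets with differences of -0.05, 0.06 and -0.01. Zfp207, a kinetochore and spindle protein, gave -0.09 and -0.11, and Zfp260 gave -0.20 and -0.15, with adjusted p from 0.142 upward for all of these. Zfp384, Zfp692 and Zfp703 had differences between -0.06 and 0.07.

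Zfp365, Zfp704 and Zfp605, named here after their values were seen, had wide differences from young that were not called. Zfp365, a brain-enriched gene, lay at 6.70, 7.05 and 7.46 in young, 4.86, 6.42 and 6.94 in aged unimpaired and 6.64, 6.80 and 7.59 in aged impaired rats. It differed by -0.79 ± 0.22 in unimpaired rats (adjusted p = 0.0637), where 4 of 6 animals lay below every young animal. Zfp704 differed by -0.41 ± 0.15 in impaired rats (adjusted p = 0.0821). Zfp605 differed by -0.39 ± 0.14 on probe set 1383534_at (adjusted p = 0.0647) and by -0.27 ± 0.12 on 1382485_at (adjusted p = 0.169), and these followed each other over the arrays (r = 0.805).

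Probe sets of the same Zfp gene often did not follow each other. In 33 genes more than 1 probe set was tested, giving 72 pairs. Their median correlation over the 23 arrays was 0.12, and 11 pairs (15.3%) exceeded 0.5. Pairs of different Zfp genes had a median of 0.01, with 2.31% above 0.5. The difference between impaired and young rats had the same sign in 45 of the 72 pairs. Of the 11 closely linked pairs, most were among the 4 Zfp91 probe sets above. The rest came from Zfp180 (0.901), Zfp605, Zfp61 (0.754), Zfp423 (0.688) and Zfp574 (0.513). The probe sets can lie in different parts of a transcript, which the files used here do not place.

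Position in the genome was followed only as gene order in the RefSeq table. Of the Zfp genes, 86 lie next to another Zfp or Znf gene, and 44 of these (51.2%) had a tested probe set, while 128 do not, and 90 of these (70.3%) had one. In impaired against young rats, 3 of 57 probe sets of neighbouring genes and 7 of 125 probe sets of the others were called (all probe sets 9.76%). The median differences were 0.02 and -0.00. Near-identical copies can share probes, so a reading from a clustered gene may hold signal of its neighbours.

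Genes that work with these proteins, or carry the same fingers under another name, were read by their brightest probe set, on which 10.2% of all genes were called in impaired against young rats. Of 28 listed KRAB corepressor and heterochromatin genes, 19 were tested and 2 were called, with a median difference of -0.03 in impaired rats. Cbx5, which encodes heterochromatin protein HP1 alpha, rose. It lay at 5.15, 6.56 and 6.82 in young, 6.53, 6.998 and 7.08 in aged unimpaired and 6.47, 7.16 and 7.40 in aged impaired rats, and the impaired difference was 0.74 ± 0.18 (adjusted p = 0.0124). Hdac2, a histone deacetylase, fell by 0.13 ± 0.04 (adjusted p = 0.0432). Trim28 and Setdb1 differed by -0.01 ± 0.03 (adjusted p = 0.877) and 0.08 ± 0.08 (adjusted p = 0.564). Of 15 tested Sp, Klf and Egr factors Sp1 rose (0.16 ± 0.04, adjusted p = 0.00897), of 7 tested Zscan and Zkscan factors Zkscan5 fell (-0.39 ± 0.08, adjusted p = 0.00452), and none of 21 Zbtb and 4 Znf-named factors was called by limma in impaired rats, with 3 and 0 of them at an unadjusted p under 0.05.

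The dissected tissue held RNA of several cell types, and in bulk tissue fewer cells of a type and less RNA per cell cannot be told apart. Of 8 CA3 pyramidal cell markers 6 were tested and their log2 values summed to between 62.4 and 64.1 in young, 61.5 and 62.7 in aged unimpaired and 59.8 and 63.3 in aged impaired rats. Nrip3, Dkk3 and Chgb of this list fell in impaired rats. Of 9 microglial markers 7 were tested and 6 rose in each aged group, with sums from 49.98 to 53.1 in young, 54.4 to 57.5 in unimpaired and 54.7 to 59.3 in impaired rats. Of 7 astrocyte markers 2 rose in each aged group, with sums from 75.5 to 77.6 in young and 76.9 to 79.3 in impaired rats. Of 7 pan-neuronal markers 2 fell in impaired rats. These sums moved with age as the Zfp calls against young rats did, and their part in those calls was not tested. Of 6 dentate granule markers 2 were tested, and limma called neither (0 at an unadjusted p under 0.05).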

How the data were processed

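The table holds 31099 probe sets on 23 arrays of CA3 RNA, as log2 values that the authors deposited after GCRMA, per the submitters' processing notes (version not given in the sources used here). GCRMA subtracts background by probe sequence, puts arrays on a common scale and collapses dim probe sets onto a floor, which was 2.19 here and held between 30.8% and 31.9% of probe sets per array. Array medians lay between 3.388 and 3.458, mean correlations with the other arrays between 0.9959 and 0.9974, and 0 pairs of arrays were identical. The medians differed by group: the lowest aged impaired median (3.429) lay above the highest young median (3.418). Centring each array on its median removes this offset. Arrays give no read depth, so the number of animals limits the precision. The 57 control rows were left out of the tests.

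Genes were named from the platform table by single symbols. By gene identifier, 336 of the 341 Zfp probe sets matched the current RefSeq rat table (GRCr8), 0 symbols changed and 5 had no match. RefSeq protein sequences were not used here, so the planned grouping by KRAB, SCAN and other domains was not made. Zfp128 and Zfp238 of the role list matched no probe set.

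The filter on low values (the low filter) kept 14647 probe sets, those reaching a log2 value of 4 on 6 or more arrays. limma 3.58.1 in R 4.3.3 estimated a mean for each group from the 23 arrays (20 residual and 2.35 prior degrees of freedom), and two-sided p-values were adjusted by Benjamini-Hochberg over all tested probe sets. The labels call the arrays biological replicates. On simulated data for aged impaired against young rats (14647 probe sets), the fit recovered 48% of changes of 0.25, 84% of 0.5 and 100% of 1 log2 unit, with 9 false calls. The simulation drew independent normal noise and changed 50 probe sets per size. It held no shared values and no correlation between probe sets, so these rates need not hold for the Zfp probe sets. Promoter letters, permutations and drawings used Python 3.11.15. The named genes were, by rule, the called members, the brightest and most variable members, a list of members with textbook roles, and all probe sets of called genes. The members and lists were chosen with earlier results of these data known. The alternatives were the low filter, the scaling of arrays, a floor, array weights, the variance prior, the replicate number as a block, the control row gap, 1 probe set per gene, the groups in the fit, and each animal left out.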

Additional observations from a re-analysis of the deposited data

Results flagged for a closer look

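In 18 of 159 groups of arrays (53 probe sets in 3 groups each) the highest or lowest animal stood apart from the rest by Dixon's test at the 95% level, which chance alone gives in about 1 of 20 groups. Many of these groups sat on a shared value, where a single animal off that value is enough to stand apart.

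Among probe sets of the pattern between the aged groups, young animal 8 was lowest at 6.29 for Zfp292 1376917_at and at 8.54 for Zfp91 1383054_at. For Zfp91 1383463_at, which did not follow that pattern, aged impaired animal 6 was highest at 8.54.

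Of the probe sets called against young rats, the highest young animal of Zfp346, number 9, stood at 6.15. The lowest aged unimpaired animal of Zfp609 1372384_at, number 8, stood at 6.22. The highest aged unimpaired animal of Zfp846 1391564_at, number 1, stood at 5.25. In other Zfp609 probe sets, aged impaired animal 6 stood at 5.66 (1389631_at) and young animal 6 at 4.73 (1390739_at).

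Among uncalled members, young animal 7 was highest at 6.56 for Zfp335, aged unimpaired animal 6 highest at 8.90 for Zfp36l1 and aged impaired animal 6 highest at 8.28 for Zfp462 1393613_at. For Zfp57, aged impaired animal 3 and aged unimpaired animal 2 both stood highest at 5.42. Zfp503 was marked in 5 groups: on 1386721_at aged impaired animal 5 at 5.36, aged unimpaired animal 2 at 5.19 and young animal 4 at 4.90, and on 1393990_at aged unimpaired animal 6 at 4.98 and young animal 2 at 4.55. The gap of aged unimpaired animal 2 from the other unimpaired animals on 1386721_at does not show at 2 decimals.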

How the results depend on the processing

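No difference of a named probe set that was called changed sign under any alternative. Over all named probe sets and comparisons, 5536 recomputed values kept their status as called or not called. Most of these belonged to differences that were not called in the main fit. A call was lost in 123 recomputed values and gained in 49. Counts of called Zfp probe sets moved by over 1.5 times as follows. Bracketed counts after each are over all probe sets. In aged impaired against young rats (10 called, 1429 over all), the unfiltered table gave 5 (768) and centring each array on its median gave 21 (2350). In aged unimpaired against young rats (3 called, 302 over all), the unfiltered table (126), centring (304) and the control row gap as a covariate (217) each gave 1. Array weights gave 5 there (672) and the replicate block gave 0 (86). Between the aged groups (2 called, 114 over all), centring gave 1 (117) and array weights gave 4 (222). There the unfiltered table (2), the replicate block (0) and the gap (0) gave 0. The brightest probe set of each gene (9) and a fit of the aged groups alone (0) also gave 0. For both aged groups against young rats (7 called, 1010 over all), centring gave 12 (1511) and quantile normalization 11 (1292). Array weights gave 13 there (1467) and the replicate block 2 (527). Leaving out each animal in turn gave 7 to 13, 1 to 3, 0 to 7 and 5 to 11 calls for the 4 comparisons in the order above. The 1 came without aged unimpaired animal 1, 4, 6 or 7 or young animal 2, 3 or 4, the 0 without aged impaired animal 1, 2, 3, 6, 7 or 8 or aged unimpaired animal 1, 4, 6 or 8, the 7 without aged unimpaired animal 7, and the 11 without aged impaired animal 1, which also had the lowest array weight (0.47). Over all probe sets, leaving out each animal in turn gave 1017 to 1808, 175 to 382, 2 to 447 and 615 to 1285 calls.

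The replicate numbers in the labels did not pair the animals. Of 20 pairs with the same number in different groups, 2 had deviations from the group means correlated above 0.1, the median correlation was -0.01 against 0.01 for other numbers, and 3 of 23 arrays matched their own number best. With the number as a block, 7 Zfp probe sets were called in impaired against young rats, 1 higher and 6 lower (870 calls over all probe sets). Dim probe sets near the floor limit what can be read, and 83 of the 220 genes could not be assessed.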

Other observations

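The loss of the calls between the aged groups with the control row gap as a covariate was not particular to the Zfp probe sets: the count over all tested probe sets went from 114 to 0. That comparison gave 5 calls over all probe sets without aged unimpaired animal 1, 2 without animal 4, 4 without animal 6 and 447 without animal 7.

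Zfp180 had the brightest tested Zfp probe set, 1388779_at, with a mean of 10.30, and both of its probe sets followed each other over the arrays (r = 0.901). It lay at 10.05, 10.14 and 10.56 in young, 10.08, 10.27 and 10.60 in aged unimpaired and 10.01, 10.35 and 10.74 in aged impaired rats, and differed by 0.09 ± 0.10 between impaired and young rats (limma adjusted p = 0.612).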
